A study of Bos taurus and Bos indicus with 3 samples.

Results

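Serine can be made from glucose, broken down to pyruvate, or split to glycine, and the enzymes of these routes were followed across leukocyte transcriptomes of 3 cattle breeds. The set named 6 enzymes: SDS, which breaks serine down, PHGDH, PSAT1 and PSPH, which make it, and SHMT1 and SHMT2, which convert it to glycine. A gene was taken as present where a model of the deposited expression table carried its symbol or its bovine protein entry name, and 5 of the 6 were found among 25968 gene models, each on 1 model. SDS was chosen by its own FPKM values, which were high in Cholistani and low in Jersey, so its levels are given as a description. The other enzymes act on serine in the routes named above, and the set as a whole was put together with earlier results of these data known.

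White blood cells came from tail vein blood of Holstein, Jersey and Cholistani cows. Equal volumes from 40 Holstein cows and 7 Jersey cows, kept on separate university farms in Wisconsin, and from 45 Cholistani cows of a farm in Punjab, Pakistan, were pooled by breed before the cells were isolated. Holstein and Jersey are taurine dairy breeds, and Cholistani is an indicine breed used for milk and meat. Polyadenylated RNA of each pool gave 1 library, and only the Cholistani RNA was shipped in a dry storage matrix. Between Cholistani and either taurine library, breed, farm, country, feeding and RNA storage therefore cannot be told apart. A difference there can reflect any of them. Country and the storage matrix did not differ between Holstein and Jersey. A difference between Holstein and Jersey can reflect breed, farm, feeding or the number of cows pooled (40 and 7), which cannot be told apart. With 1 library per breed there was no spread between replicates, so no test, error or interval based on it could be computed. The words higher and lower compare single libraries. The authors called differential genes between these libraries with Cuffdiff, and those calls were not used here.

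Levels are in FPKM (fragments per kilobase of exon, here scaled by the authors to the upper quartile). This unit is set per length and lets genes be compared within a library. A fold is the log2 ratio of FPKM + 1, which understates differences of low genes, and a model was called higher or lower at 2-fold or more. The FPKM sums were 5949770 in Holstein, 6288100 in Jersey and 9518430 in Cholistani, and the 100 most abundant models held between 38.9% and 46.7% of them. The folds of the serine enzymes, the marker sums and the main counts are therefore also given after the libraries were set to equal sums, which moved the median log2 fold of all models from 0.15 to -0.43 against Holstein and from 0.12 to -0.41 against Jersey. Of 4 general leukocyte markers only CORO1A was matched by name, at 7638 FPKM in Holstein, 7842 FPKM in Jersey and 16310 FPKM in Cholistani (9310, 9044 and 12427 with equal sums). In bulk RNA, more cells of a type and more RNA per cell cannot be told apart.

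Serine is built from the glycolytic intermediate 3-phosphoglycerate: PHGDH oxidises it, PSAT1 transfers an amino group to the product and PSPH removes the phosphate. SHMT1 in the cytosol and SHMT2 in mitochondria then move a carbon of serine to folate, the carrier that supplies purine and thymidylate synthesis, and leave glycine. SDS uses pyridoxal phosphate to turn serine into pyruvate and ammonia, and in rats and humans it is known above all as a liver enzyme of gluconeogenesis. Dividing lymphocytes of mice and humans are known for a high demand for serine and its one-carbon units.

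SDS, the serine dehydratase gene, lay on chromosome 17 from 64236615 to 64244768 (btau4.0). It had 809.7 FPKM in Holstein, 170.5 FPKM in Jersey and 14764 FPKM in Cholistani. The Cholistani level was 18.2 times the Holstein level and 86.6 times the Jersey level, and even the 2 taurine libraries differed, with the Jersey level at 0.211 of the Holstein level. The log2 folds were 4.19 for Cholistani against Holstein, 6.43 for Cholistani against Jersey and -2.24 for Jersey against Holstein. With the libraries set to equal sums they were 3.51, 5.83 and -2.32, so all 3 remained past 2-fold in the same direction.

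In the Cholistani library SDS ranked 111 of 13664 detected models, within the most abundant percent, and it alone made up 0.155% of the FPKM sum. It ranked 935 of 13409 in Holstein and 4558 of 13783 in Jersey, where 66.9% of detected models were lower. Among the 1165 models with at least 1000 FPKM in their highest library, a minimum chosen after the SDS values were seen, 23 had a larger log2 fold than SDS for Cholistani against Holstein and 14 for Cholistani against Jersey. Of the same models, 3 had a lower log2 fold than SDS between Jersey and Holstein. SDS reached that minimum in Cholistani alone. Among all 15284 models above 0 in any library, 636 had a larger log2 fold than SDS for Cholistani against Holstein. For Cholistani against Jersey 82 had a larger one, and between Jersey and Holstein 467 had a lower one. These ranks describe values that chose the gene.

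PHGDH, the enzyme that commits 3-phosphoglycerate to serine, was the most abundant of the biosynthetic genes. It lay on chromosome 3 from 25578418 to 25609724, and it had 2794 FPKM in Holstein, 3425 FPKM in Jersey and 4286 FPKM in Cholistani. The libraries thus differed little beside SDS, with log2 folds of 0.62 for Cholistani against Holstein, 0.32 for Cholistani against Jersey and 0.29 for Jersey against Holstein, none of them at 2-fold. With equal sums the Cholistani library turned slightly lower, at -0.06 against Holstein and -0.27 against Jersey. The direction of Cholistani against either taurine library thus does not hold for PHGDH under both scales. Jersey stayed above Holstein by less than 2-fold, at 0.21 with equal sums. The rank of PHGDH was nearly constant, at 284, 249 and 295 in Holstein, Jersey and Cholistani.

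PSPH, the phosphatase of the last step, was far less abundant than PHGDH. On chromosome 25 from 29521202 to 29552353, it had 55.2 FPKM in Holstein, 53.8 FPKM in Jersey and 89.3 FPKM in Cholistani. The taurine libraries were nearly alike (a log2 fold of -0.04), and the Cholistani library stood higher by less than 2-fold, at 0.68 against Holstein and 0.72 against Jersey. With equal sums these values were 0.02 and 0.13. PHGDH exceeded PSPH 50.6 times in Holstein, 63.6 times in Jersey and 48.0 times in Cholistani, so the gap between the first and the last step was of like size in the 3 libraries.

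PSAT1, the aminotransferase between them, was matched to no model. In the RefSeq annotation of another assembly (ARS-UCD2.0) it lies next to CEP78. The model that followed CEP78 on chromosome 8 of btau4.0, from 56615611 to 56644602, carried a protein accession only, and it had 154 FPKM in Holstein, 121 FPKM in Jersey and 129.5 FPKM in Cholistani. The table does not pair this accession with a gene, so the model was assigned to none.

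**Figure D1:**
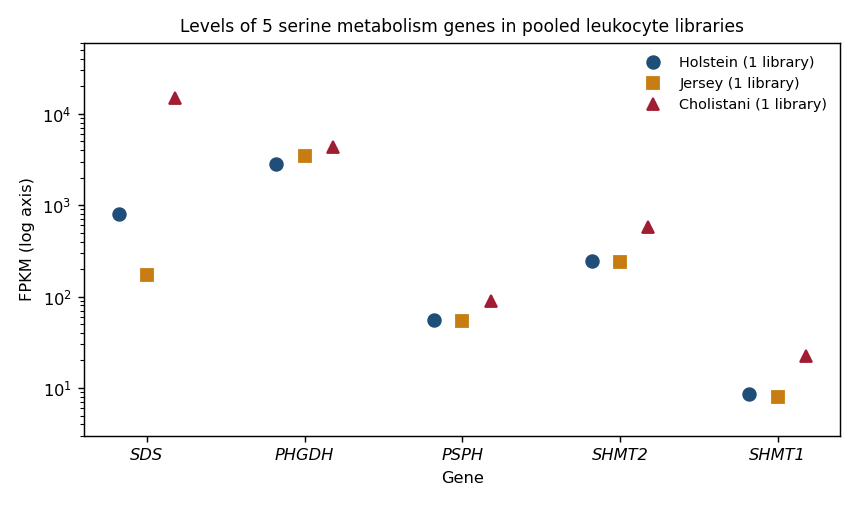
FPKM (log axis) of SDS, PHGDH, PSPH, SHMT2 and SHMT1 with circles for Holstein, squares for Jersey and triangles for Cholistani; each point is 1 pooled library, without error bars. SDS runs from 170.5 to 14764 FPKM, whereas each of the other 4 genes stays within 3-fold, with Cholistani the highest as deposited (for PHGDH not with equal sums).

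SHMT2, the mitochondrial enzyme that splits serine to glycine, lay on chromosome 5 from 60716871 to 60724464. It had 244 FPKM in Holstein, 239 FPKM in Jersey and 574 FPKM in Cholistani. The taurine levels were nearly equal, at a log2 fold of -0.03, and the Cholistani level was higher by 1.23 against Holstein and 1.26 against Jersey on the log2 scale, which passes 2-fold. With equal sums the folds were 0.55 and 0.67, and neither passed. The SHMT2 model shared its listed span with a model of NDUFA4L2, which was at 0 in each library.

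SHMT1, the cytosolic form, was the least abundant of the 5 genes. On chromosome 19 from 35374599 to 35389030, it had 8.70 FPKM in Holstein, 7.93 FPKM in Jersey and 22.6 FPKM in Cholistani. The Cholistani library was again past 2-fold, by 1.28 against Holstein and 1.40 against Jersey on the log2 scale, and with equal sums it was at 0.65 and 0.84. A pseudocount of 10 FPKM in place of 1 also ended both calls, at 0.80 and 0.86, because the level is low. More than 90% of detected models were higher than SHMT1 in Holstein and in Jersey, where 7.21% and 6.95% were lower. SHMT2 exceeded SHMT1 28.1 times in Holstein, 30.1 times in Jersey and 25.4 times in Cholistani.

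Set side by side, 3 of the 5 genes found (SDS, SHMT1 and SHMT2) exceeded their Holstein level at least 2-fold in Cholistani and none was lower, where 19.7% of 15284 models above 0 in any library were higher and 13.7% lower. The same 3 were higher than in Jersey, where 17.2% of all models were higher and 14.2% lower. Between the taurine libraries only SDS passed 2-fold, lower in Jersey, against 4.70% of all models lower and 7.99% higher. Without SDS, which was chosen for its values, 2 of 4 genes were higher in Cholistani than in each taurine library, and none passed 2-fold between Jersey and Holstein. With equal sums SDS was the 1 gene of the 5 past 2-fold in each pair, where Cholistani exceeded Holstein in 11.6% of all models and fell short of it in 27.5%, exceeded Jersey in 10.4% and fell short of it in 26.2%, and Jersey exceeded Holstein in 7.74% and fell short of it in 5.11%. Both comparisons with Cholistani use the same Cholistani library.

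The order of the levels changed with SDS. In Holstein it was PHGDH, SDS, SHMT2, PSPH and SHMT1 from high to low, in Jersey SHMT2 stood above SDS, and in Cholistani SDS stood above PHGDH. PHGDH was 3.45 times SDS in Holstein and 20.1 times in Jersey, whereas SDS was 3.44 times PHGDH in Cholistani. These ratios lie within a library and do not depend on how the libraries are scaled. Of the summed FPKM of the 5 genes, SDS made up 20.7% in the Holstein library, 4.38% in the Jersey library and 74.8% in the Cholistani library. The other 4 genes summed to 3102, 3725 and 4972 FPKM in the same order. Whether neighbours in these orders differ beyond replicate spread could not be assessed.

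**Figure D2:**
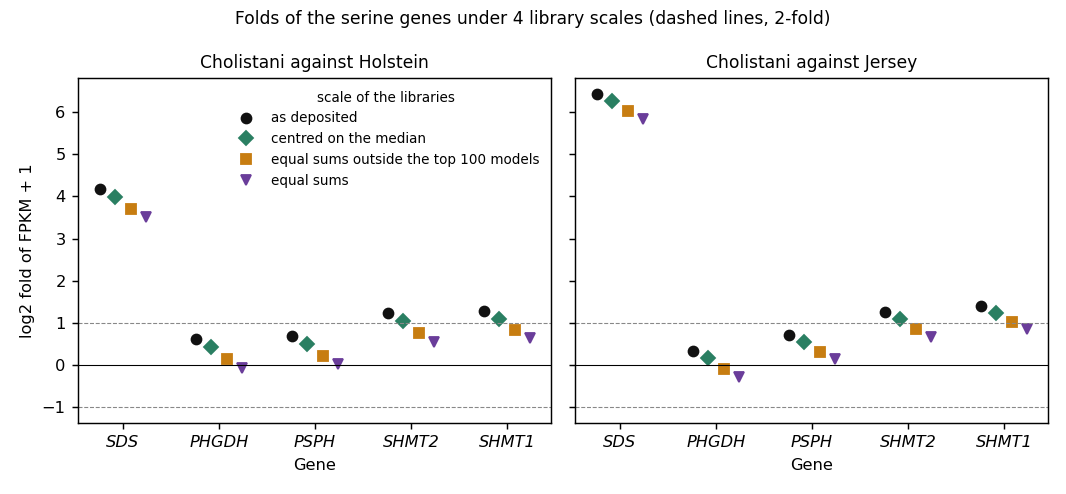
Log2 folds of FPKM + 1 of the 5 genes for Cholistani against Holstein (left) and against Jersey (right), with the libraries as deposited, centred on the median of models with at least 10 FPKM, set to equal sums outside the 100 most abundant models, or set to equal sums. SDS lies above 3.5 under each scale, SHMT2 and SHMT1 start past the dashed 2-fold line and lie under it with equal sums, and PHGDH crosses 0.

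SDS was higher in Cholistani than in Holstein and lower in Jersey than in Holstein, each by at least 2-fold, a pattern shared by 61 of 15284 models (0.399%). SDS was the most abundant of the 61 in its highest library. Of these, 40 were listed at 0 in Jersey and 35 reached 50 FPKM in any library. The named models closest to SDS were found by the distance between the pairs of log2 folds (Cholistani over Holstein and Jersey over Holstein) among 5681 other named models with at least 50 FPKM in the highest library, over 3 libraries. Models with no name, a protein accession only or several gene names were left out of this ranking, so some of them may lie nearer.

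CXCR2, a chemokine receptor of neutrophils, was the closest. It had 33.5 FPKM in Holstein, 7.62 FPKM in Jersey and 598 FPKM in Cholistani, at a distance of 0.25 log2 units. DGAT2, an enzyme of triglyceride synthesis, followed at a distance of 0.43, with 45.1, 12.1 and 808 FPKM. In both the Jersey level was the lowest and the Cholistani level the highest, an order that follows from their choice by nearness to SDS. Both reached the minimum of 50 FPKM in Cholistani alone.

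The next named models were farther away. IL1B, an inflammatory cytokine, had 89.3, 51.4 and 1851 FPKM (distance 1.46), and CCL4, a chemokine, had 85.3, 54.5 and 1811 FPKM (1.62). LOC616364, whose role the table does not give, had 14 FPKM in Holstein, was listed at 0 in Jersey and had 326 in Cholistani (1.69). IL1B and CCL4 were less than 2-fold lower in Jersey than in Holstein. All 5 were less abundant than SDS in each library. The paper also measured DGAT2, IL1B and IL8RB, an older symbol of CXCR2, by real-time RT-PCR in the same Holstein and Cholistani RNA. It reports that the results matched sequencing. SDS was not among the genes with listed primers.

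**Figure D3:**
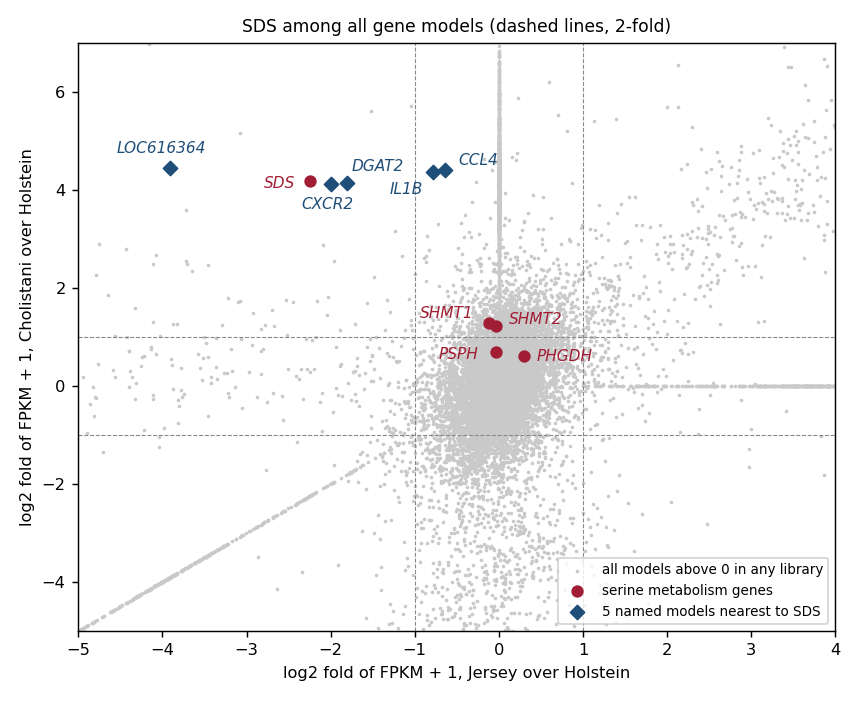
Log2 folds of FPKM + 1 for Jersey over Holstein (horizontal) against Cholistani over Holstein (vertical), with 1 grey point per model (14660 of 15284 lie inside the axes), the serine genes as red circles and the 5 named models nearest to SDS as blue diamonds. Both axes use the same Holstein library. SDS lies at -2.24 and 4.19 beside CXCR2 and DGAT2, and the other 4 serine genes lie within 0.3 of 0 on the horizontal axis.

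Around SDS, the neighbouring models were far less abundant than SDS in Cholistani. PLBD2, a lysosomal protein gene that starts 1745 bases after SDS, had 449.5 FPKM in Holstein, 343 FPKM in Jersey and 669.5 FPKM in Cholistani. The nearest model before SDS (64211776 to 64223484) stood at 0 in both taurine libraries and had 106.6 FPKM in Cholistani. The next model before it was listed at 0 in each library, and the next after PLBD2 had 27.6, 28.6 and 59.6 FPKM. RefSeq places SDSL, a gene related to SDS, next to it, but the table names the models before SDS by protein accession only, so none was called SDSL. No other model overlapped the listed span of SDS.

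Cell type markers were read beside SDS. The 7 liver markers (ALB, APOA1, TTR, FGB, CPS1, TAT and TDO2) were at 0 in all 3 libraries. Of 5 monocyte markers 2 were matched, CD14 and VCAN, and their summed level was 545 FPKM in Holstein, 356 FPKM in Jersey and 568 FPKM in Cholistani. As deposited the sum was lowest in Jersey and highest in Cholistani, over a much narrower range than SDS. CD14 had this order, at 342, 237 and 398 FPKM in Holstein, Jersey and Cholistani. VCAN was instead highest in Holstein, at 202, 119 and 170 FPKM. With equal sums the summed level was 664 in Holstein, 411 in Jersey and 432 in Cholistani, so that Holstein was the highest.

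The 6 neutrophil markers matched of 8 summed to 29183 FPKM in Holstein, 22223 FPKM in Jersey and 23784 FPKM in Cholistani, with S100A8 and S100A12 holding most of the sum. With equal sums they were at 35571, 25630 and 18121, so that Cholistani turned from above Jersey to the lowest. Among them CXCR2 and CSF3R were past 2-fold higher in Cholistani than in Holstein as deposited, at log2 folds of 4.12 and 1.59, and S100A8 and S100A12 were not. With equal sums CXCR2 stayed past 2-fold at 3.45 and CSF3R did not, at 0.91, while S100A8 and S100A12 were past 2-fold lower, at -1.19 and -1.05. CSF3R, a growth factor receptor of neutrophils, had 657, 532 and 1976 FPKM. MMP9 and LTF were at 0 in Jersey. All 3 natural killer markers matched of 4 were past 2-fold higher in Cholistani than in Holstein as deposited, summing to 1048, 783 and 3144 FPKM (1277, 903 and 2395 with equal sums). With equal sums NKG7, of cytotoxic granules, was the 1 still past 2-fold, at 1.65, and NCR1 and KLRD1 were at 0.51 and 0.49.

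The 4 T cell markers matched of 5 summed to 4662, 4651 and 9757 FPKM and the 2 B cell markers matched of 4 to 6246, 7671 and 16017 FPKM, in the order Holstein, Jersey and Cholistani. With equal sums the T cell markers were at 5683, 5364 and 7434 and the B cell markers at 7613, 8847 and 12203, so Cholistani stayed the highest for both by a smaller margin. Dendritic cell markers summed to 165, 140.1 and 258 FPKM as deposited and to 201, 162 and 197 with equal sums, where Holstein was the highest, with CLEC9A at 0 in every library and XCR1 above 0 in Jersey alone. Platelet markers (2 matched of 4) summed to 905, 1043 and 811 FPKM (1104, 1203 and 618 with equal sums). That sum followed PPBP, at 821, 939 and 621 FPKM, with a log2 fold of -0.40 against Holstein and -1.08 with equal sums. GP9 was instead highest in Cholistani, at 84.5, 104 and 190 FPKM. Its log2 fold against Holstein was 1.16, past 2-fold, and 0.49 with equal sums. Red cell markers (3 matched of 5) summed to 536, 375 and 102 FPKM (653, 432 and 77.5 with equal sums), with AHSP at 0. The sum followed ALAS2, of heme synthesis, at 536, 363 and 32.3 FPKM, whereas the hemoglobin alpha model HBA went the other way, listed at 0 in Holstein and at 11.5 and 69.3 FPKM in Jersey and Cholistani. A second model carried the HBA name, so reads may be split between them. The part of cell composition in the SDS result was not tested.

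The genes around the serine enzymes were counted in 7 lists: breakdown and interconversion of serine and glycine, the folate one-carbon cycle, serine use, neutral amino acid transport, the ATF4 amino acid response, other aminotransferases and amino acid breakdown, and pyruvate and gluconeogenesis. Of 106 genes listed, 74 were matched by name and 59 were above 0 in any library. Of the 59, 7 (11.9%) exceeded their Holstein level at least 2-fold in Cholistani and 2 (3.39%) were as far below it, against 19.7% and 13.7% of all models. Their median log2 fold was 0.26, beside 0.15 for all 15284 models and 0.25 for those with at least 50 FPKM in the highest library. With equal sums 3 were higher and 8 lower, against 11.6% and 27.5% of all models. Against Jersey 6 were higher and 1 lower, where 17.2% and 14.2% of all models were. Between Jersey and Holstein 1 was higher (GPT, at 0 in Holstein) and none lower, where 7.99% and 4.70% of all models were.

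Among the enzymes that break down or interconvert serine and glycine, none of 8 measured genes was 2-fold higher in Cholistani. AMT, a subunit of the glycine cleavage system, had 114 FPKM in Holstein, 189.8 FPKM in Jersey and 218 FPKM in Cholistani, a log2 fold of 0.93 against Holstein. DLD, which serves glycine cleavage and the pyruvate dehydrogenase complex, had 152, 172 and 154 FPKM. GLYCTK, a glycerate kinase, had 48.7, 50.9 and 40.9 FPKM. These 3 genes were within 2-fold in every pair, as deposited and with equal sums. GNMT, a glycine methyltransferase named after its values were seen, was the 1 gene lower than in Holstein as deposited, at 3.42, 1.71 and 0.381 FPKM. Against Jersey no gene of the list was called lower as deposited. With equal sums GNMT and GCAT (named in the same way) were lower against Jersey, at -1.20 and -1.35. SRR, the serine racemase, which can also break serine down, had 11.2, 13.0 and 9.49 FPKM (also named after its values were seen).

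Among the folate genes that take up the carbon of serine, none of 11 passed 2-fold in any pair on the scale of FPKM + 1 as deposited. MTHFD1L, a mitochondrial formate producer, had 94.4, 87.1 and 167 FPKM, in the same order of libraries as above, and the mitochondrial dehydrogenase gene MTHFD2 had 176, 179 and 193. The thymidylate synthase gene TYMS had 111, 94.1 and 188 FPKM, and at a log2 fold of 0.99 against Jersey it was just short of 2-fold, which it passed with a pseudocount of 0.1 or none. MTR, the methionine synthase gene, had 46.8, 49.3 and 56.4 FPKM. With equal sums the folate transporter SLC46A1 alone passed 2-fold against Holstein, at -1.18 (named after its values were seen). FPGS, which adds glutamates to folate, had 60.5, 56.5 and 91.8 FPKM, and GART, of purine synthesis, had 164, 162 and 141.

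Genes that use serine were also within 2-fold as deposited, in all 8 measured members and all 3 pairs. SARS, the cytosolic seryl-tRNA synthetase gene, was the most abundant at 3238, 2644 and 4462 FPKM, and its mitochondrial counterpart SARS2 had 137, 168 and 248. SPTLC1, a subunit of the serine palmitoyltransferase that starts sphingolipid synthesis, was lower in Cholistani (235, 203 and 139 FPKM), by less than 2-fold as deposited and past it with equal sums, at -1.43 against Holstein and -1.14 against Jersey. With equal sums SERINC2 and SERINC5 also passed 2-fold against Holstein, at -1.01 and -1.09 (named after their values were seen). SERINC3, of a family of membrane proteins named for serine incorporation, had 478, 441 and 657 FPKM.

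Of 6 transporters measured, SLC1A5 was the 1 past 2-fold. This neutral amino acid carrier, which also takes up serine, had 118 FPKM in Holstein, 95.5 FPKM in Jersey and 345 FPKM in Cholistani, with log2 folds of 1.53 and 1.84 for Cholistani against Holstein and against Jersey. With equal sums the folds were 0.86 and 1.25, so the call against Holstein was lost. SLC1A4, the related carrier of alanine and serine, was lower in Cholistani (85.1, 94.4 and 59.4 FPKM), at -0.51 against Holstein and at -1.18, past 2-fold, with equal sums. SFXN1, a mitochondrial serine carrier, had 125, 95.6 and 107 FPKM, its relative SFXN3 54.2, 65.7 and 79.5, and the glycine carrier SLC6A9 52.2, 43.4 and 65.6.

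ATF4 is a transcription factor of amino acid shortage, known in mammals to drive PHGDH, PSAT1, PSPH and SHMT2. It had 2215 FPKM in Holstein, 2433 FPKM in Jersey and 5309 FPKM in Cholistani, a log2 fold of 1.26 against Holstein, which was 0.58 with equal sums. ATF3, a stress-induced factor of the same family, had 23.7, 23.8 and 319 FPKM, with a log2 fold of 3.70 against Holstein and of 3.03 with equal sums. The remaining 5 of the 7 measured genes stayed within 2-fold, among them ASNS, the asparagine synthetase gene, at 64.9, 87.9 and 104 FPKM and DDIT3, a stress factor, at 178, 211 and 281. Unlike SDS, ATF3 was level between Holstein and Jersey, at a log2 fold of 0.01.

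Among 11 other genes of amino acid breakdown, GPT2, the mitochondrial alanine aminotransferase, was lower in Cholistani. It had 123 FPKM in Holstein, 87.2 FPKM in Jersey and 30.5 FPKM in Cholistani, with log2 folds of -1.98 against Holstein and -1.49 against Jersey, which were -2.65 and -2.07 with equal sums. BCAT2, a branched-chain aminotransferase, had 37.6, 52.5 and 88.4 FPKM and was past 2-fold against Holstein only, at 1.21, and at 0.55 with equal sums. The arginase gene ARG2 had 72.6, 37.9 and 99.6 FPKM and was past 2-fold against Jersey only, at 1.37, and at 0.78 with equal sums. GOT1, GOT2 and GLUD1, of transamination and glutamate breakdown, stayed within 2-fold, at 151 to 216, 383 to 497 and 493 to 524 FPKM. HAL and GPT were the other 2 genes past 2-fold against Holstein, both at 0 there and under 10 FPKM in Cholistani (named after their values were seen). TAT, TDO2, HPD, AADAT and ARG1 were at 0 in each library.

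In the list of pyruvate and gluconeogenesis, PCK1, FBP2 and G6PC, of gluconeogenesis in liver, kidney or muscle, were at 0 in all 3 libraries (named after their values were seen). G6PC3, the widely expressed glucose-6-phosphatase, had 141 FPKM in Holstein, 146 FPKM in Jersey and 346 FPKM in Cholistani, a log2 fold of 1.29 against Holstein and of 0.61 with equal sums. Apart from G6PC3, the other 7 genes above 0, FBP1 and PC among them, were within 2-fold as deposited. MPC1, a subunit of the mitochondrial pyruvate carrier, had 406, 495 and 715 FPKM, LDHB 1365, 1325 and 2099, LDHA 989, 853 and 840.4, and PDHA1, of pyruvate dehydrogenase, 178, 144 and 116. PDHA1 passed 2-fold with equal sums, at -1.29 against Holstein.

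**Figure D4:**
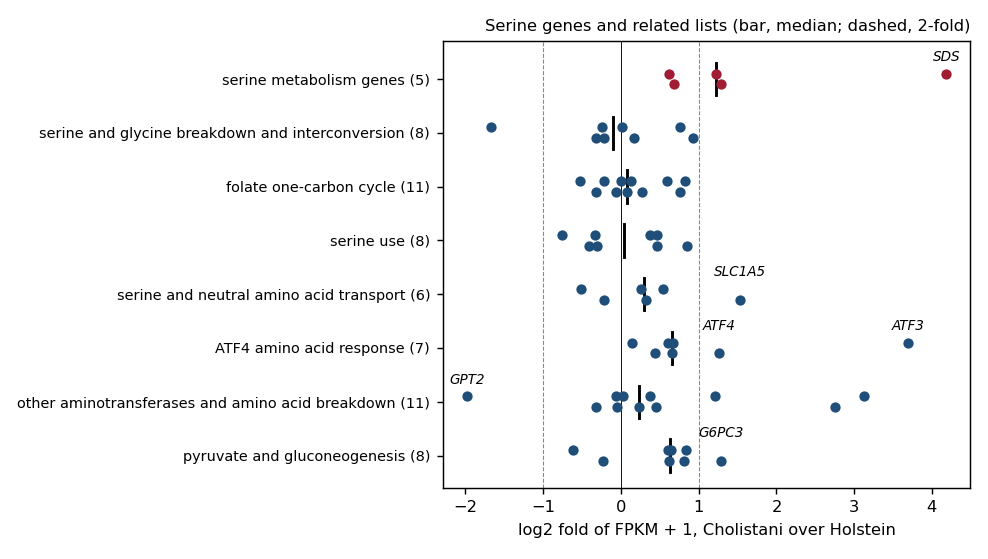
Log2 folds of FPKM + 1 for Cholistani over Holstein, 1 point per gene above 0 in any library, for the serine genes and the 7 lists (number of genes in parentheses, black bar the median). SDS at 4.19 and ATF3 at 3.70 lie farthest to the right, and GPT2 at -1.98 lies farthest to the left.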

How the data were processed

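The authors used TopHat v1.0.14 and Bowtie v0.12.7 to align paired reads of 1 library per breed (genome build btau4.0), discarded reads at more than 20 locations, and assembled and quantified gene models with Cufflinks v0.9.3. The deposited values are FPKM scaled by the authors to the upper quartile, with a correction for sequence bias. FPKM were used as deposited. Models with missing values (5) were left out, and 15284 were above 0 in any library. Starts were raised by 1 on the assumption that the table counts from 0. Genes were matched by symbol or bovine protein entry name, taking the most abundant model where several carried the name, and accession-only (4683) and merged names (159) were not matched. Protein entry names were paired with symbols by hand. A few listed genes are not reported here and were left out of the lists, their counts and sums. Among models under 10 FPKM in both libraries of a pair, at most 3.80% shared the commonest ratio within 1%, so no steps of whole reads were found, and the depth behind each value is unknown and no interval was computed.

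With 1 library per breed no test against replicate spread was possible. Members and lists were chosen with earlier results of these data known. Text names every member, per list up to 4 genes with at least 50 FPKM farthest from 0 and the 2 most abundant, the 5 named models most like SDS, and 2 models on each side of SDS. Alternatives were pseudocounts of 0.1 and 10 or none, equal sums of 1000000 or of the mean sum, centring on the median, a minimum of 10 FPKM, and summed models. Equal sums outside the top 100 models were added after seeing the data. "Equal sums" in the text means the mean sum. The folds were tested on simulated data. Python 3.11.15, pandas 2.3.3, numpy 2.4.6 and matplotlib 3.10.9 were used.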

Additional observations from a re-analysis of the deposited data

How the results depend on the processing

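SDS stayed past 2-fold in the same direction in all 3 pairs of libraries under every alternative run, and PHGDH and PSPH stayed within 2-fold. The calls of SHMT1 and SHMT2 changed with the scaling, and those of SHMT1 also with a pseudocount of 10. For Cholistani against Holstein, SHMT1 was at a log2 fold of 1.28 as deposited, 0.45 with sums of 1000000, 0.65 with the mean sum, 0.83 with equal sums outside the top 100 models (chosen after seeing the data) and 0.80 with a pseudocount of 10, and SHMT2 at 1.23, 0.54, 0.55 and 0.75 under the first 4 of these. Against Jersey, under the same 5 settings, SHMT1 was at 1.40, 0.58, 0.84, 1.02 (still past 2-fold) and 0.86, and SHMT2 at 1.26, 0.65, 0.67 and 0.86 under the first 4 and at 1.23, still past 2-fold, with a pseudocount of 10. The count of the 5 genes higher in Cholistani was 3 as deposited and 1 under all 3 of these scalings against Holstein, and 1 under both equal-sum scalings and 2 outside the top 100 against Jersey. With a pseudocount of 10 it was 2 in both comparisons.

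Of the 59 other genes, 7 were higher in Cholistani than in Holstein as deposited, against 1 with sums of 1000000, 3 with the mean sum and 4 outside the top 100 (all models: 19.7%, 9.28%, 11.6% and 12.9%), and 2 were lower, against 5, 8 and 4 (13.7%, 21.7%, 27.5% and 22.2%), and 1 with a pseudocount of 10 or a minimum of 10 FPKM. Against Jersey 6 were higher, against 2, 3 and 3 (17.2%, 8.31%, 10.4% and 11.7%), and 1 was lower, against 4, 7 and 6 (14.2%, 19.97%, 26.2% and 21.2%), and 3 when centred on the median or with a pseudocount of 0.1 or none. Between Jersey and Holstein the 1 higher gene (GPT, at 0 in Holstein) became 0 with a pseudocount of 10, with none, with sums of 1000000 and with a minimum of 10 FPKM, and the 0 lower became 1 without a pseudocount and with the mean sum.

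Equal sums scale the Cholistani library down against the others by construction, and which scale is right was not tested. The share of higher among called models for Cholistani against Holstein was 58.9% as deposited, 49.5% when centred, 36.8% outside the top 100 and 29.7% with the mean sum. Leaving out a replicate could not be tried with 1 library per breed. No paired analysis was possible because each breed has 1 library.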
